A study of Mus musculus with 6 samples.

Results

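The ATF4 amino acid starvation programme is described here by 34 genes, chosen by symbol: 7 transcription factors and regulators, 7 feedback and stress effectors, 11 enzymes of amino acid and one-carbon metabolism, and 9 cytosolic aminoacyl-tRNA synthetases. All 34 were found among the 26778 genes of the authors' table, and all 34 carried a deposited adjusted p. ATF4 is a transcription factor whose messenger RNA is translated preferentially when the initiation factor eIF2 is phosphorylated, as happens when amino acids run short (through the kinase GCN2), when unfolded proteins gather in the endoplasmic reticulum (PERK), or when haem is lacking (HRI). It pairs with C/EBP factors on a composite DNA element and raises genes that make, import and charge amino acids, together with the regulators CHOP (Ddit3) and TRIB3, which act back on it. Because ATF4 itself is governed largely by translation, its messenger RNA level and its activity need not move together.

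RNA sequencing was done on primary bone marrow-derived macrophages, cells that grow out of mouse marrow when it is cultured with a conditioned medium that supports macrophages. The mice were C57BL/6 with the genotype Flt-1+/+ (VR1+/+), here called wild type (n = 3 libraries), or Flt-1+/- (VR1+/-), here called heterozygote (n = 3 libraries). Flt-1 encodes VEGF receptor 1, and the labels do not describe the allele. Every library, the wild type ones included, came from cells at day 7 of culture that spent 6 h in starvation medium at 2% oxygen, so the genotypes are compared under starvation and hypoxia alone, and no unstarved library was analysed here. The labels do not say that libraries of a group came from separate mice, so the spread behind each p-value is that of these libraries and may be technical.

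The authors' table holds, per gene, a mean read count for each genotype after division by a size factor per library (a normalized count) and a test between genotypes. Whole counts per library were recovered from those means, and the recovered libraries are lettered A to C within a genotype because nothing ties them to the replicate numbers of the labels. They held about 25270000 to 41650000 counted reads. Flt1 itself stood at 3.70 to 10.3 normalized counts in wild type libraries and 8.19 to 17.1 in heterozygote libraries, and the adjusted p in the authors' deposited table was 0.641, so this low count does not check the genotype labels and directions below are between libraries as labelled. Of 9 macrophage markers all were detected, with a summed mean of 872979 normalized counts in wild type and 822563 in heterozygote; 2 of them, Csf1r (45697 and 31060) and Cd68 (13972 and 8966), were called lower in heterozygote. Over the 4 macrophage markers with recovered counts, the library sums were 18865 to 20184 in wild type and 13574 to 16294 in heterozygote. Of 12 neutrophil markers 8 were called higher in heterozygote, at 3.56 (Cxcr2) to 61.7 (Ngp) times their wild type means. The summed level of the list was 864 to 934 normalized counts in wild type libraries and 3710 to 4679 in heterozygote libraries. Mmp8, which was not called, made up most of the wild type sum, with means of 728 and 705. The primary granule genes Elane, Mpo and Prtn3 had means of at most 4.96. In the other marker lists, 2 of 6 B and plasma cell markers, Igkc and Jchain, were called lower in heterozygote. So were Cd4, of 4 T and NK markers found, and Ccr7, of 7 dendritic ones. Acta2, of 7 stromal markers, Vwf, of 5 endothelial ones, and Gp1ba, of 5 erythroid and megakaryocyte ones, were called higher. In that order of lists, 3, 2, 1, 5, 3 and 1 markers had a log2 ratio above 0. Below 0 were 3, 2, 6, 2, 2 and 4. Jchain, Ccr7 and Gp1ba were low, with means of at most 86.0 normalized counts. The part of any marker list's difference in the results below was not tested. The libraries also split across genotype by the mitochondrial gene mt-Co2, listed at 0 in wild type C, heterozygote B and heterozygote C and at 4070 to 4751 normalized counts in the other 3, and heterozygote B was nearest to wild type B of all libraries (Pearson r = 0.967 across genes).

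The promoters of several members carry the element through which ATF4 and C/EBP factors bind, and these sequences are shown as a description. The members were chosen as genes of the ATF4 programme, so the share of them with this element is not independent of that choice. The motif TGATGNAA, a form of that composite element, was sought on both strands from 250 bases before to 50 after the RefSeq start site (build GRCm38.p6). It was present for 11 of the 29 members that have a promoter entry (37.9%), against 4.51% of 27025 genes. In the windows below, read in the direction of the gene, capitals mark the motif, which stands as TTNCATCA where it lies on the opposite strand.
Nupr1 (chr7:126625555-126625598, minus strand): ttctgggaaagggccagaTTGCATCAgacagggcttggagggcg
Gars (chr6:55037953-55037996, plus strand): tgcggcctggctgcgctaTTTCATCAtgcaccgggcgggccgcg
Aars (chr8:111033712-111033755, plus strand): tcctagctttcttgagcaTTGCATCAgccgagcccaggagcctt
Iars (chr13:49682126-49682155, plus strand): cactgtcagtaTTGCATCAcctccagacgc
Asns (chr6:7693210-7693250, minus strand): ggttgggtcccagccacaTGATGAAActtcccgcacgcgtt
Trib3 (chr2:152344028-152344057, minus strand): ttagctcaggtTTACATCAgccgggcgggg
Chac1 (chr2:119351031-119351074, plus strand): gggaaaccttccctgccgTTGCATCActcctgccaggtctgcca
Atf3 (chr1:191183418-191183461, minus strand): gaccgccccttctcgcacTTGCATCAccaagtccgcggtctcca
Nupr1 and Gars are the members with the motif that the deposited test called; the others were taken from each of the 4 roles described below. Pck2, Pycr1 and Vldlr also had a match. The remaining 18 members with an entry had none in this window, and Cth, Nars, Wars, Mars and Lars had no entry. The 11 members with a match had a median log2 ratio, heterozygote over wild type, of 0.26 (8 above 0), and the 18 without one a median of -0.08 (8 above 0). The members with no entry are in neither group, and all of them had ratios above 0, from 0.11 for Mars to 0.56 for Lars. The groups also hold the roles in different proportions, so motif and role cannot be told apart. The difference was not tested.

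Between genotypes the programme did not move as one. The deposited test called 6 of 34 members at an adjusted p of 0.05 (17.6%, against 6.04% of all 15789 genes tested). The synthetases Lars, Gars and Eprs and the regulator Nupr1 were higher in heterozygote, 4 of 34 against 2.51% of all genes, and the phosphatase subunit gene Ppp1r15a and the mTORC1 inhibitor gene Ddit4 were lower, 2 of 34 against 3.52%. Of the 20 enzymes and synthetases, 17 had a log2 ratio above 0, while 10 of the 14 regulators and effectors had one below 0. Of all 15789 tested genes, 7723 lay above 0 and 8066 below. Among the genes in these counts, Shmt2, Mars, Atf3, Atf4 and Atf5 changed sign when a single library was left out. Genes measured in the same libraries are not independent, and the contrast between roles was not tested. The median log2 ratio was 0.15 over the 34 members and -0.01 over all tested genes. Library ranges of the genotypes did not overlap for 13 of the 31 members with counts recovered in every library (against 23.6% of 15147 genes), 8 with heterozygote above (25.8%, against 11.2%) and 5 with heterozygote below (16.1%, against 12.3%).

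These calls come from the deposited test. Of 31 members with recovered counts, limma called 1, Lars, among 340 genes in all (0.832% of genes higher and 1.41% lower). It called Lars and Gars without heterozygote B, and no member when any other library was left out (9 to 14 members at an unadjusted p under 0.05 in those 5 fits). With the mt-Co2 set as a term it called Lars and Gars higher and Ppp1r15a and Ddit4 lower, against 1.08% and 2.12% of genes. With all libraries and no set term, Lars was the only member called by both tests.

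**Figure D1:**
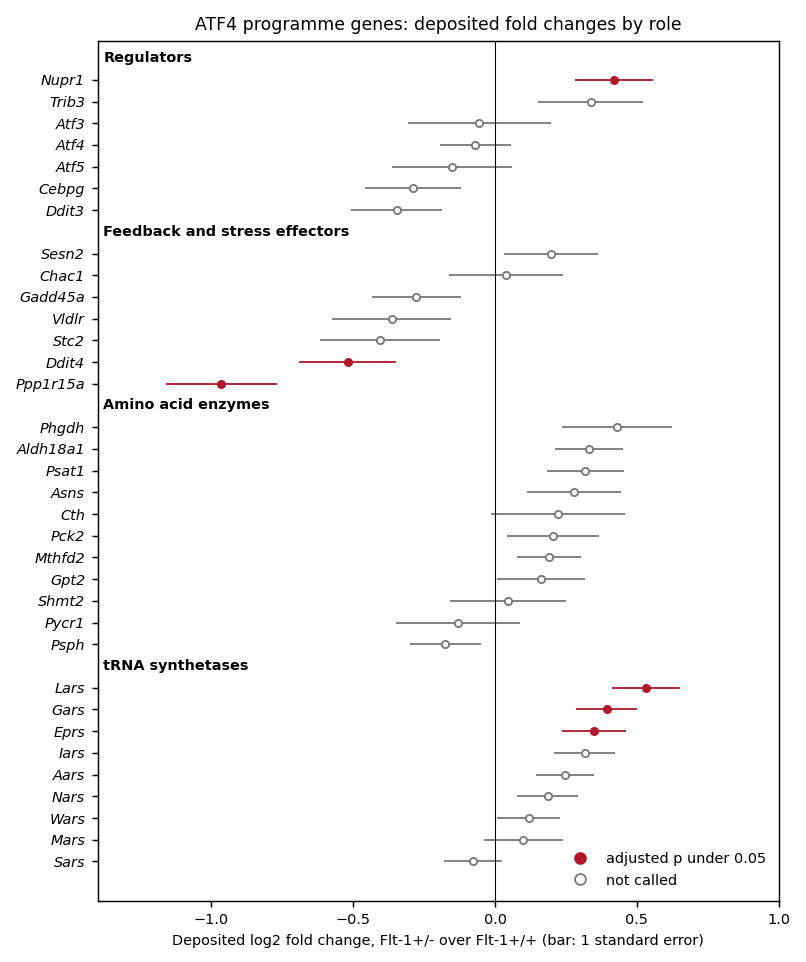
Log2 fold change of each of the 34 genes in the authors' deposited table, positive where heterozygote is higher, grouped by role; bars are 1 standard error and filled red points are genes called at an adjusted p under 0.05. The 9 synthetases lie above 0 except Sars, and the lowest gene is Ppp1r15a at -0.97.

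Aminoacyl-tRNA synthetases join each amino acid to its tRNA, and the ATF4 programme raises a set of the cytosolic ones. Lars, which charges leucine tRNA, rose in heterozygote. Its normalized counts were 4806, 5165 and 4712 in wild type A, B and C and 7941, 6369 and 7400 in heterozygote A, B and C. Every heterozygote library lay above every wild type library, with heterozygote B the nearest. The means were 4895 ± 239 and 7237 ± 799 (SD, n = 3 each), a ratio of 1.48, and the log2 fold change in the authors' deposited table was 0.53 ± 0.12 (SE), adjusted p = 4.90e-04. limma gave an adjusted p of 0.0435, and 0.0314 to 0.175 when 1 library was left out. Lars (ENSMUSG00000024493) lies on chromosome 18. In these bulk libraries a change in the number of cells of a type and a change in RNA per cell cannot be told apart.

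Gars, the glycine enzyme and one of the motif-bearing genes above, rose as well (ENSMUSG00000029777, chromosome 6, 55038007 to 55079500, build mm10). It stood at 5201, 5553 and 5283 normalized counts in wild type and at 7734, 6575 and 7027 in heterozygote libraries A to C. The groups did not overlap, and heterozygote A was highest. Gars had a log2 fold change of 0.39 ± 0.11 (SE) and adjusted p = 0.00727 in the authors' deposited table, and limma gave adjusted p = 0.0662. Eprs, which charges both glutamate and proline tRNA, was the third to rise. Its counts were 8331, 8931 and 8352 in wild type and 12130, 10094 and 10795 in heterozygote, again with no overlap and with heterozygote B lowest of its group. For Eprs the authors' deposited table has 0.35 ± 0.11 (log2 fold change, SE) with adjusted p = 0.0342, and limma gave adjusted p = 0.107. Within the libraries with mt-Co2 reads the log2 ratios of Lars, Gars and Eprs were 0.67, 0.52 and 0.49, and within those without they were 0.55, 0.36 and 0.32. The former set heterozygote A alone against wild type A and B, and the latter heterozygote B and C against wild type C alone. Since the genotypes did not overlap for these genes, the sign within each set was fixed in advance and adds no support.

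The other 6 synthetases did not pass the test. Iars, for isoleucine, came closest, with 5802, 6507 and 6299 normalized counts in wild type and 8000, 7182 and 8231 in heterozygote, and adjusted p = 0.0566 by the authors' deposited table. Aars, for alanine, stood at 11183, 12070 and 12183 and at 13494, 15237 and 13635, an adjusted p of 0.162. Neither gene's groups overlapped. Nars, for asparagine, had log2 ratio 0.19, Wars, for tryptophan, 0.12 and Mars, for methionine, 0.11. Sars, for serine, was the only one of the 9 with a ratio below 0, at -0.08, with overlapping libraries of 8094 to 8936 and 7843 to 8651. For Aars, Nars and Atf4 the heterozygote mean allowed 2 sets of library counts, and the more even set is given throughout. The other set would put the highest library 5.56 to 14.9 times above the lowest. A spread of at least 5.56 was reached by 8 of 2027 genes with a heterozygote mean above 3000. Part of Aars is uncertain, since 14.3% of its exon bases are shared with Exosc6.

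**Figure D2:**
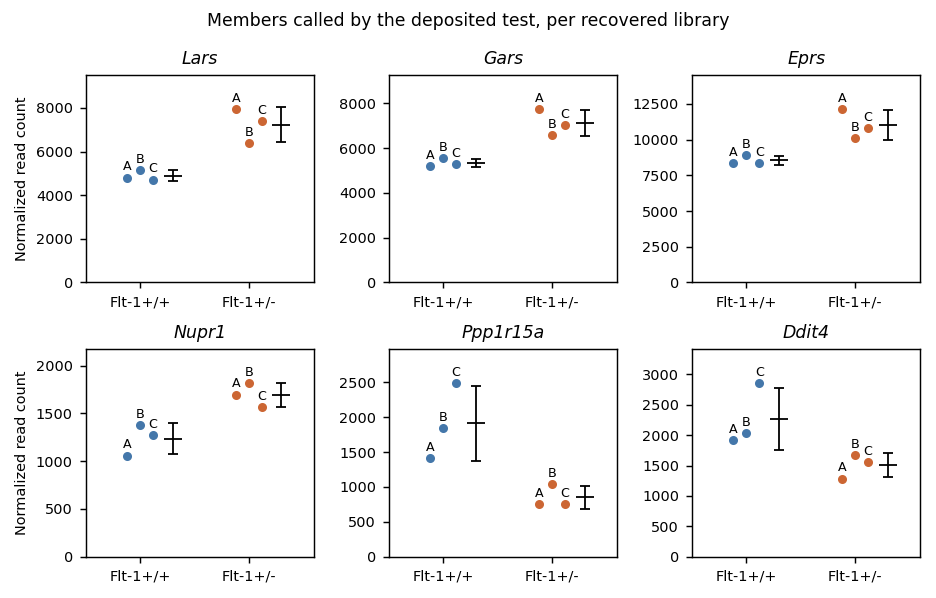
Normalized read counts of the 6 members called by the deposited test, 1 point per recovered library (A to C) with the group mean and SD beside them; the axes start at 0. In each panel the heterozygote points lie wholly above (Lars, Gars, Eprs, Nupr1) or wholly below (Ppp1r15a, Ddit4) the wild type points.

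Synthetases outside the programme list were also measured. Of the 11 other cytosolic synthetases 0 were called, against 6.04% of all genes, and limma called 0 of 11. An unadjusted p under 0.05 in the deposited test was found for 3 of them, against 2488 of 15789 genes tested. The median log2 ratio of the 11 was -0.01, against 0.26 for the 9 in the programme. The 3 highest of these were Cars at 0.27, Yars at 0.24 and Tars at 0.21, and the lowest was Farsb at -0.21. Cars is also counted below among the other known targets of ATF4 or CHOP. The 11 are thus outside the programme list but not free of ATF4 or CHOP targets, and the medians do not separate targets from other synthetases. For 4 of the 11, Cars, Yars, Tars and Kars, every heterozygote library lay above every wild type library, against 11.2% of all genes. Of 17 mitochondrial synthetases 0 were called (0 at an unadjusted p under 0.05, and 0 of 17 by limma), with a median of -0.07 and a range from -0.42 for Ears2 to 0.25 for Mars2. In lists of 11 and 17 genes a count of 0 called lies near the share over all genes, and the difference between these lists was not tested.

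**Figure D3:**
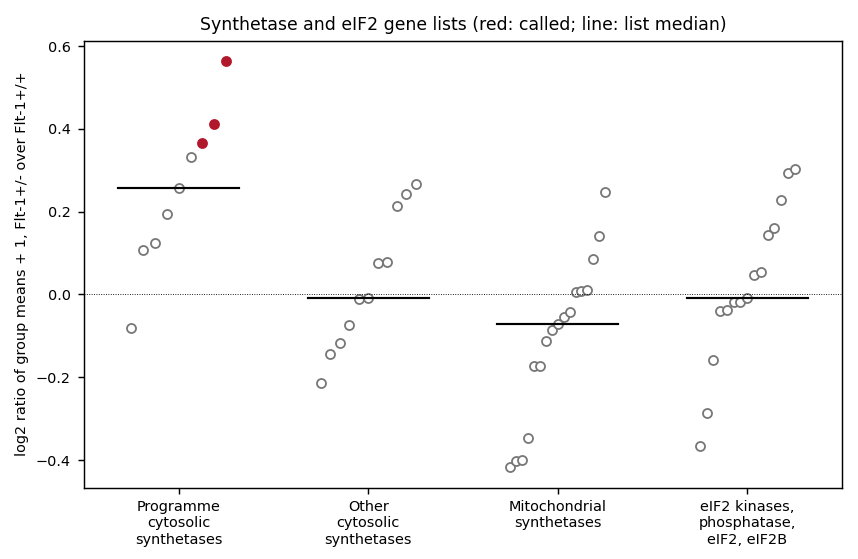
Log2 ratio of group means (pseudocount 1, heterozygote over wild type) for each gene of 4 lists, with red points for genes called by the deposited test and a line at the list median. The medians are 0.26 for the programme synthetases, -0.01 for the other cytosolic ones, -0.07 for the mitochondrial ones and -0.01 for the eIF2 kinase, phosphatase, eIF2 and eIF2B genes.

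Of the amino acid enzymes 0 of 11 were called, against 6.04% of all genes, and limma called 0 of 11. An unadjusted p under 0.05 in the deposited test was found for 3, against 2488 of 15789 genes tested. Among the enzymes 9 of 11 had a log2 ratio above 0, and the median was 0.23. Their mean deviation from the average of the 6 libraries was -0.30 in wild type A, 0.03 in B and -0.01 in C, and -0.01, 0.15 and 0.14 in heterozygote A, B and C, so wild type A stood apart and heterozygote A lay with wild type B and C. Aldh18a1, which makes the precursor of proline from glutamate, had the smallest adjusted p, 0.0836 in the authors' deposited table. It stood at 1886, 2229 and 2264 normalized counts in wild type and 2537, 2844 and 2760 in heterozygote, so the groups did not overlap. Psat1, the transaminase of serine synthesis, also had libraries apart, at 2991, 3789 and 3494 in wild type and 4538, 3824 and 4674 in heterozygote, with an adjusted p of 0.179. Mthfd2, a mitochondrial folate enzyme, stood at 5533, 6619 and 6556 and at 7312, 7012 and 7177, without overlap and with an adjusted p of 0.432. In all 3 genes the lowest of the 6 libraries was wild type A.

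None of the serine synthesis genes was called. Phgdh, which takes the first step from glycolysis, had the largest ratio among the enzymes, with 503, 778 and 785 normalized counts in wild type and 757, 1138 and 1061 in heterozygote; the ranges overlapped and the adjusted p was 0.219 in the authors' deposited table. Psph, the last step, lay below instead, at 651, 629 and 621 in wild type and 549, 518 and 605 in heterozygote, without overlap and with an adjusted p of 0.571. The Psph counts are uncertain, since 10.4% of its exon bases lie opposite Cct6a and whether counting used strand is not given in the sources used here. Shmt2, which hands the serine carbon to folate, had means of 2818 ± 637 and 2934 ± 856 (SD, n = 3 each). Asns, asparagine synthetase and a standard reporter of ATF4 activity, stood at 4812, 6885 and 6579 in wild type and 8231, 6249 and 8256 in heterozygote. Heterozygote B lay below wild type B and C, and the adjusted p of Asns was 0.439.

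The remaining enzymes had overlapping libraries and none was called. Pck2, the mitochondrial phosphoenolpyruvate carboxykinase, had a log2 ratio of 0.23, Gpt2, a mitochondrial alanine transaminase, 0.18, and Cth, which makes cysteine from cystathionine, 0.30 at only 48.1 to 80.7 normalized counts. Pycr1, which completes proline synthesis, was the other enzyme below 0, at -0.17, with heterozygote libraries at 84.0, 147 and 90.1 around wild type libraries of 119 to 123. The first and last enzymes of the proline route thus had ratios of opposite sign, and neither was called.

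Among the regulators 1 of 7 was called, against 6.04% of all genes. Nupr1, a small stress-induced chromatin protein whose gene carries the motif above, rose (ENSMUSG00000030717, chromosome 7, 126623249 to 126630861). It stood at 1058, 1378 and 1273 normalized counts in wild type and 1696, 1813 and 1566 in heterozygote, with no overlap. The means were 1236 ± 163 and 1691 ± 124 (SD, n = 3 each). The log2 fold change of Nupr1 by the authors' deposited table was 0.42 ± 0.14 (SE), and its adjusted p was 0.0417, or 0.128 by limma. The log2 ratio was 0.48 and 0.41 within the libraries with and without mt-Co2 reads. With no overlap between genotypes its sign in each set was fixed in advance, and each set holds a single library of one genotype.

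Atf4 itself was not called. Its messenger RNA was the most abundant of the 34 per kb of exon, at 6538 normalized counts per kb in wild type and 6208 in heterozygote, where the lowest were Cth in wild type at 19.6 and Vldlr in heterozygote at 19.5. By library Atf4 stood at 13116, 16095 and 17042 normalized counts in wild type and 14893, 14815 and 14204 in heterozygote. The heterozygote libraries lay inside the wild type range, and the adjusted p was 0.895. Ddit3, the gene of CHOP, stood at 2041 to 2745 and 1615 to 2209, adjusted p = 0.233 by the authors' deposited table. Cebpg, a C/EBP partner of ATF4, had libraries apart, at 2215, 2606 and 2284 against 2170, 2093 and 1388, with heterozygote C far below the others and an adjusted p of 0.434.

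Trib3, a pseudokinase that restrains ATF4 and CHOP, was at 1246, 1452 and 1757 normalized counts in wild type and 1627, 2555 and 1686 in heterozygote, an adjusted p of 0.381. Heterozygote B was the one library far above the rest. Atf5 stood at 1705 to 3258 and 1489 to 2535. Atf3, induced by ATF4 among many other signals, was the member least alike between libraries of a group. Its counts were 3988, 5716 and 7384 in wild type and 2422, 2894 and 10174 in heterozygote. Heterozygote A and B were the lowest of the 6 libraries and heterozygote C the highest, 4.20 times heterozygote A. The log2 ratio of Atf3 was -0.14 with all libraries and turned to 0.09 without wild type C, 0.20 without heterozygote A and 0.15 without heterozygote B, while without heterozygote C it was -1.10.

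The feedback and stress effectors held both lower calls, 2 of 7 against 3.52% of all genes. Ppp1r15a encodes GADD34, which brings protein phosphatase 1 to eIF2 and ends the response. It stood at 1414, 1846 and 2484 normalized counts in wild type and 758, 1047 and 751 in heterozygote (ENSMUSG00000040435, chromosome 7, 45522916 to 45526268). The groups did not overlap, and wild type C was well above the rest. The means were 1914 ± 538 and 852 ± 169 (SD, n = 3 each), 2.25 times higher in wild type. Its log2 fold change by the authors' deposited table was -0.97 ± 0.20 (SE), adjusted p = 5.40e-05. limma gave an adjusted p of 0.0564, 0.0541 to 0.189 when 1 library was left out, and 0.0301 with the mt-Co2 set as a term.

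Ddit4 encodes REDD1, which restrains mTORC1 and is a target of hypoxia-inducible factors as well as of ATF4. It fell from 1915, 2032 and 2851 normalized counts in wild type to 1284, 1671 and 1553 in heterozygote. No libraries of the groups overlapped. In the authors' deposited table Ddit4 had a log2 fold change of -0.52 ± 0.17 (SE), adjusted p = 0.0428; limma gave 0.167, or 0.0222 with the mt-Co2 set as a term. The log2 ratios of Ppp1r15a and Ddit4 were -1.10 and -0.62 within the libraries with mt-Co2 reads and -1.47 and -0.82 within those without. Here too the lack of overlap fixed the sign in advance, and each set holds a single library of one genotype. Sesn2, a leucine sensor that also restrains mTORC1, did not follow Ddit4, at 3046 to 4194 and 3334 to 4834, with an adjusted p of 0.663.

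Of the other effectors none was called. Stc2, a secreted glycoprotein, had wild type libraries at 162, 164 and 155 normalized counts and heterozygote libraries at 128, 131 and 75.1, apart but with adjusted p = 0.330 by the authors' deposited table. Vldlr, a lipoprotein receptor, stood at 223 to 333 and 153 to 255, and Gadd45a, a growth arrest protein, at 528 to 734 and 482 to 558. For Gadd45a 19.1% of the exon bases lie opposite E230016M11Rik. Chac1, which breaks down glutathione and is a sensitive target of ATF4 and CHOP, stood at 1041, 1472 and 1708 in wild type and 1043, 1750 and 1566 in heterozygote. The A libraries of both genotypes were low and nearly equal, and the adjusted p of Chac1 was 0.973.

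**Figure D4:**
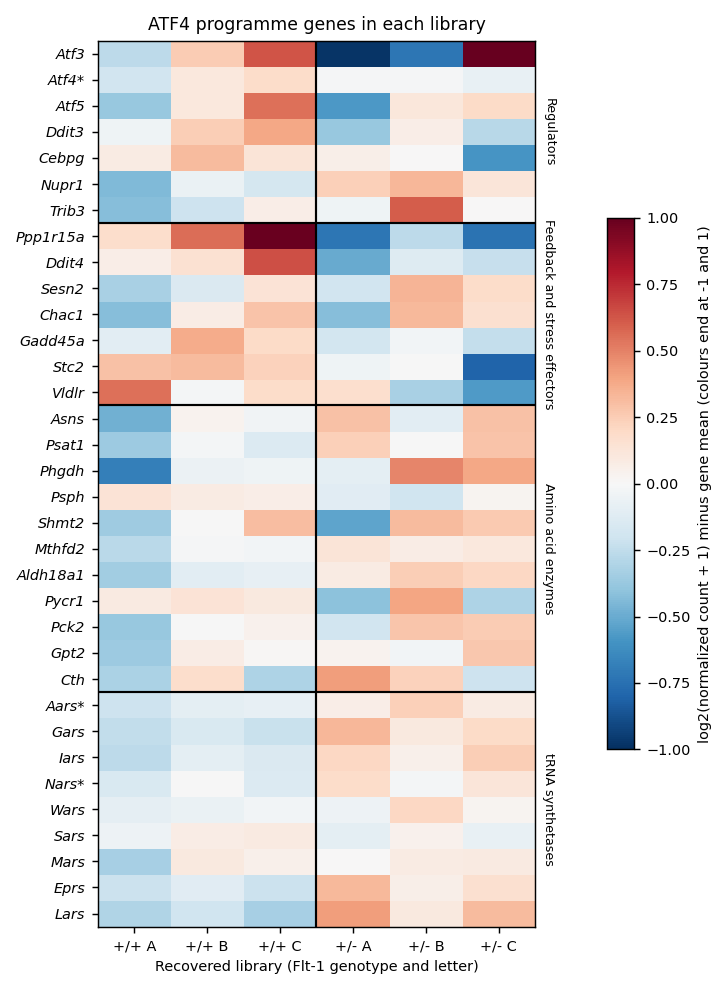
Each of the 34 genes (rows, by role) in each recovered library (columns), as log2 of the normalized count + 1 minus the gene's mean over the 6 libraries; an asterisk marks genes whose heterozygote counts are the more even of 2 solutions. The synthetase block is lower in all wild type columns, at a mean deviation of -0.21, -0.06 and -0.11, while wild type A is the lowest library for 20 of 34 genes.

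The members also varied between libraries within a genotype. Wild type A held the lowest value of 20 of the 34 members, and heterozygote B the highest of 11. The mean deviation over all members was -0.19 in wild type A, 0.05 in B and 0.10 in C, and -0.07, 0.08 and 0.03 in heterozygote A, B and C. Of the 31 members with recovered counts, 8 (25.8%) had all 3 libraries without mt-Co2 reads above all 3 with them, against 5.51% of 15147 genes, and 0 had them below, against 6.32%. These 8 were Atf5, Trib3, Sesn2, Chac1, Phgdh, Shmt2, Pck2 and Wars, and none was called between genotypes. Their levels tracked a division of the libraries that was seen in the data and is not a labelled group, and what it stands for was not tested.

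Genes that act on eIF2 were listed apart from Ppp1r15a, the phosphatase subunit gene described above as lower. Of 15 other genes for eIF2 kinases, their regulators, phosphatase subunits, eIF2 and eIF2B, 0 were called, against 6.04% of all genes. In a list so short that count lies near the share over all genes. An unadjusted p under 0.05 in the deposited test was found for 4 of the 15, against 2488 of 15789 genes tested, and limma called 0 of 14. The kinase genes had log2 ratios of -0.04 for Eif2ak4 (GCN2), -0.01 for Eif2ak3 (PERK), 0.05 for Eif2ak2 (PKR) and 0.14 for Eif2ak1 (HRI). Impact, which holds GCN2 back, had the smallest adjusted p of these, 0.0675 in the authors' deposited table, with means of 8148 in wild type and 6327 in heterozygote. Ppp1r15b, the constitutive counterpart of Ppp1r15a, had a log2 ratio of 0.23 and an adjusted p of 0.268.

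The 29 other known targets of ATF4 or CHOP include Cars, which was also counted above among the cytosolic synthetases. Of the 25 that were tested, 4 rose and 1 fell, against 2.51% and 3.52% of all genes. Among the 28 that the table lists, 12 had a log2 ratio above 0 and 16 below, with a median of -0.08. Those that rose were Aldh1l2, a mitochondrial folate enzyme, from a mean of 815 to 1293 normalized counts, and the amino acid transporter genes Slc6a9, from 107 to 207, Slc1a5, from 599 to 862, and Slc7a1, from 4443 to 6061. Adjusted p-values in the authors' deposited table were 4.98e-04, 0.00590, 0.0254 and 0.0105. Ero1l, an oxidase of the endoplasmic reticulum that hypoxia also induces, fell from 11779 to 6812. Slc7a11, the cystine transporter gene, had means of 1073 and 703 and an adjusted p of 0.0585. limma called Aldh1l2 and Ero1l of these, and with the mt-Co2 set as a term Ero1l but not Aldh1l2 (adjusted p = 0.0587). Of 17 tested genes among 19 other serine, proline, glutamate and one-carbon genes 1 was called, a share near the 6.04% of all genes: Glul, glutamine synthetase, fell from 11817 to 8838 with an adjusted p of 0.00143, and limma called it without the mt-Co2 set term but not with it (adjusted p = 0.0529).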

How the data were processed

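The labels' protocols describe rRNA-depleted total RNA and a stranded library kit. Per the submitters' processing notes, the tools were FastQC, TopHat 1.0.0 and Cufflinks and the build was mm10; what each did, and which counter was used, is not given in the sources used here. Per the file headers, the columns are named as in DESeq2 output. The deposited signal of each group is a mean, made by the authors, of size-factor-scaled read counts in 3 libraries. The authors' deposited log2 fold changes and standard errors were used as given, their score is the fold change over its error, and their p-values are two-sided. Calls needed a deposited adjusted p under 0.05 and a mean of at least 1. Log2 ratios use group means + 1.

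Each group mean, printed to 15 significant digits, is a sum of 3 whole counts times 3 steps; steps and counts were solved together, with 1 solution in both groups for 26357 of 26778 genes (98.4%), including 31 members. Recovery and limma were also run on simulated data, but the outcome is not reported here. limma 3.58.1 in R 4.3.3 (trended variance, pseudocount 1 before log2, 15147 genes with a mean of 10 or more) was an alternative test, with other scaling, pseudocount, omitted libraries and a term for the mt-Co2 set. With 3 against 3 libraries an exact permutation test gives at best p = 0.1, so none was run. Coordinates of 30 members equal GENCODE M21; promoters are from RefSeq.

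All 34 members were described by role, those called or with library ranges apart with every library's value; from other lists, called genes and the eIF2 kinases were named. The synthetases at the ends of a list, Kars, Impact, Ppp1r15b, Slc7a11 and Mmp8 were named after their values were seen. Members and lists were chosen with earlier results of these data known.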

Additional observations from a re-analysis of the deposited data

How the results depend on the processing

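The deposited test called 4 members higher and 2 lower, and the same counts were obtained with no minimum mean and with a minimum of 10. At an adjusted p under 0.01 the counts were 2 and 1. limma called 1 higher and 0 lower with median-ratio factors, with TMM factors and with a pseudocount of 5, where 10 to 11 of 31 members had an unadjusted p under 0.05. With the mt-Co2 set as a term it called 2 higher and 2 lower. Leaving out 1 library, limma called 0 to 2 higher and 0 to 0 lower. All 340 alternative log2 ratios of the 34 members moved by less than 1 SD between libraries. That SD was the larger of the 2 groups' SDs on the log2 scale, 1.13 for Atf3. Leaving out 1 of 3 libraries can hardly move a mean by that much, so this is no check of stability. For 6 members, each with a ratio of at most 0.194 in size, the sign changed when 1 library was left out (Atf3, Atf4, Atf5, Chac1, Shmt2 and Mars). Scaling group means by their medians over tested genes shifts every log2 ratio by 0.049. No paired analysis was possible because the recovered libraries cannot be tied to the replicate numbers of the labels. With 3 libraries a group, small differences could be missed.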
